A study of Mus musculus with 12 samples.

Results

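Acta2, Cnn1, Lmod1, Mustn1, Myh11 and Tagln, 6 genes of the smooth muscle contractile apparatus, were followed in glomerulus-enriched RNA of 2 substrains of the BALB/c mouse. They were chosen by gene symbol out of 26264 genes in the count tables, and all 6 passed the filter on low counts that kept 17002 genes for testing. Of the 6, Tagln rose at Day 5 after adriamycin in ByJcl, 2.48-fold over baseline, and none of the other 5 passed the test in any comparison. Tagln was also 2.22-fold higher in ByJcl than in AJcl at Day 5, a call that was lost when the library set aside by the study was added back.

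Male mice, 8 weeks old, of BALB/cAjcl (here AJcl) or of BALB/cByJcl (here ByJcl) were either untreated (baseline) or were taken 5 days after 1 intravenous dose of adriamycin (ADR, doxorubicin) of 10 mg/kg. The 4 groups held 3 libraries each, 12 in all, and the design text gives 3 mice for every group. ADR is an anthracycline that injures podocytes and is widely used to produce proteinuria in BALB/c mice. Glomeruli were collected with magnetic beads perfused into the kidney, and poly(A) RNA was sequenced in paired reads. Replicate 1 of AJcl at Day 5 was set aside by the study for reduced glomerular purity, so tests rest on 11 libraries with 2 in that group, and levels are given for all 12. Because the baseline counts form one table and the Day 5 counts another, any change brought by ADR and any change of table cannot be told apart.

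Smooth muscle shortens when the myosin heavy chain encoded by Myh11 pulls on filaments of smooth muscle actin, Acta2. Lmod1 (leiomodin) seeds those filaments, Tagln (transgelin, SM22) and Cnn1 (calponin) bind along them, and Mustn1 is a small protein of muscle tissues, including the vessel wall. Most of these genes are classic targets of serum response factor (SRF) and its myocardin-family partners, which act through CArG boxes, and in the kidney they mark arterioles and, to a varying degree, mesangial and injured stromal cells. In bulk RNA, a change in the number of cells of a type and a change in RNA per cell cannot be told apart.

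Total counts per library lay between 42198416 and 54687045, with a median of 46915194, and at this depth 3 counts correspond to between 0.0554 and 0.0702 CPM, the counts of a gene scaled to a common library size. CPM were scaled by the TMM method. Glomerular markers were abundant, with a mean level of Nphs1, which encodes the slit diaphragm protein nephrin, of 1339 CPM in AJcl at baseline. Tubular markers were present too. The summed level of 7 proximal tubule genes ranged from 311 to 3332 CPM, the highest being AJcl Day 5 replicate 1.

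In GRCm39, the build of the authors' alignment, Tagln lies on chromosome 9 at chr9:45840909-45847404 (minus strand) and Cnn1 on the same chromosome at chr9:22010512-22020926 (plus strand). Acta2 lies at chr19:34217737-34232990 (minus), Myh11 at chr16:14012399-14109236 (minus), Lmod1 at chr1:135252509-135295907 (plus) and Mustn1 at chr14:30601157-30603567 (plus). The exons of 3 members share bases with genes on the opposite strand: Tagln shares 123 with Pcsk7 and 1241 with the long non-coding RNA Gm48529, Acta2 shares 301 with Stambpl1, and Cnn1 shares 961 with Elof1. The libraries were strand-specific, but the strand setting of the counting was not given in the sources used here, so reads from these stretches are uncertain. The median count of Cnn1 was 60 against 1463 for Elof1. Gm48529 covers 1241 of the 2044 exonic bases of Tagln, and its level was not analysed here, so its part in the Tagln counts was not tested. Pcsk7 itself had a log2 fold change (log2FC) in ByJcl, Day 5 relative to baseline, of 0.06 ± 0.09 (SE, edgeR adjusted p = 0.703), beside the rise of Tagln.

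RefSeq promoters, 250 bases before to 50 after the start of transcription, were at hand for Acta2, Cnn1, Lmod1 and Mustn1, 4 of the 6. The promoter of Acta2 is shown because it is the one with motifs of the CArG kind. It is the minus strand of chr19:34255324-34255623 in GRCm38.p6, and capitals mark its CArG-like boxes.
Acta2 promoter: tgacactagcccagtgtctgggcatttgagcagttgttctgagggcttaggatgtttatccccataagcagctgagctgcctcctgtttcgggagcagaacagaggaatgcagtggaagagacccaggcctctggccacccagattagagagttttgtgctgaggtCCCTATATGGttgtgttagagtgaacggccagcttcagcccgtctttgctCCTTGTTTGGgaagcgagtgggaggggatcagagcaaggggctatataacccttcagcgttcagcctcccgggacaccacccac

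A CArG box was searched on both strands as CC, a core of 6 bases that are each A or T, and GG, and a CArG-like box was allowed 1 other base in the core. None of the 4 promoters held the strict box, which 1.63% of 32851 mouse promoters of this length hold. Acta2 held 2 CArG-like boxes, CCCTATATGG beginning 84 bases and CCTTGTTTGG beginning 34 bases before the start, and 8.5% of promoters hold at least 1. CATTCC, the binding motif of TEAD factors, was found on either strand in Acta2, Lmod1 and Mustn1, and in 14.7% of promoters. TATAAA was in none of the 4 and in 13.6% of promoters. That exact string misses near forms, such as ctatataa in the Acta2 sequence above, so its absence does not show that a promoter lacks a TATA box. Distances of the boxes depend on the RefSeq start used here.

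Per kilobase of annotated exon, and averaged over the 12 libraries, Tagln had the highest level of the 6 at 86.9 CPM per kb, at the 98.4th percentile of 16385 tested genes with a length. Acta2 followed at 34.6, Mustn1 at 28.6 and Myh11 at 15.0 CPM per kb. Lmod1 was at 3.27 and Cnn1 at 0.47 CPM per kb, the 50.3th and the 23.6th percentile. In AJcl at baseline Acta2 (38.6 ± 3.68 CPM per kb, SD, n = 3) and Mustn1 (32.7 ± 4.21) lay within their spread of each other, and the other neighbours in the order stood further apart than their SDs. The spread between libraries of a group was close to that of other genes, with a pooled SD on the log2 scale of 0.202 for Acta2 to 0.277 for Myh11 against a median of 0.239 over all tested genes.

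**Figure D1:**
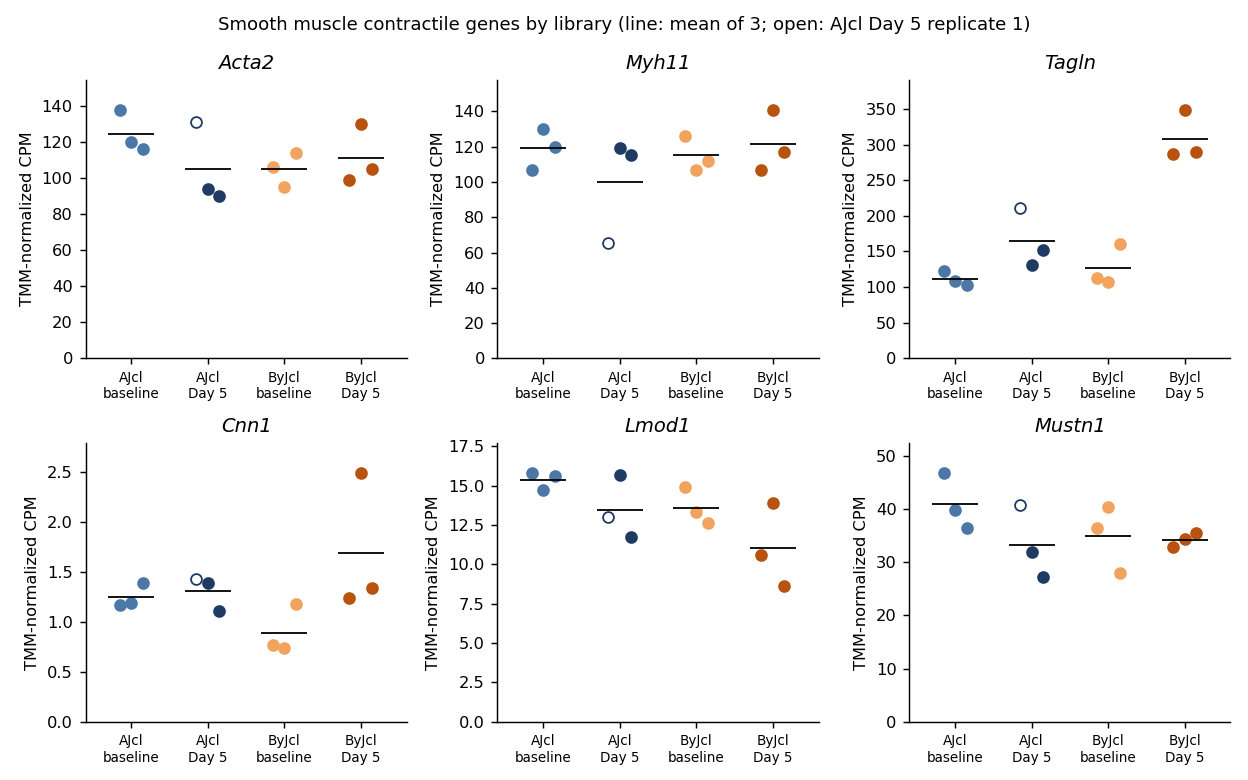
TMM-normalized CPM of each of the 6 genes (vertical axes from 0) in the 12 libraries by group, with the mean of 3 as a line and AJcl Day 5 replicate 1 as an open circle. Tagln in the 3 ByJcl Day 5 libraries, between 286 and 349 CPM, lies above every other library, and for Lmod1 and Mustn1 the treated ByJcl libraries overlap with untreated ByJcl but lie below untreated AJcl.

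Tagln stood at 123, 108 and 103 CPM in AJcl at baseline and at 113, 107 and 160 CPM in ByJcl at baseline. At Day 5 it was at 211, 131 and 152 CPM in AJcl and at 286, 349 and 289 CPM in ByJcl. All 3 treated ByJcl libraries exceeded each of the other 9, while the untreated substrains overlapped. Within AJcl each Day 5 library lay above each baseline library, the library set aside being the highest. In ByJcl Tagln rose by a log2FC of 1.31 ± 0.16 (SE) from baseline to Day 5 (edgeR quasi-likelihood test, adjusted p = 0.00163), and in AJcl the log2FC was 0.37 ± 0.18 (adjusted p = 0.536). The difference between these responses, the substrain by ADR interaction, was 0.94 ± 0.24 on the log2 scale, with an unadjusted p of 0.00238 and an edgeR adjusted p of 0.62. A larger response of Tagln in ByJcl than in AJcl was therefore not established at the adjusted threshold.

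Between substrains, Tagln differed by a log2FC of 0.21 ± 0.16 at baseline (ByJcl relative to AJcl, edgeR adjusted p = 0.688) and of 1.15 ± 0.18 at Day 5 (adjusted p = 0.0436). The Day 5 call was close to the threshold of 0.05. With all 12 libraries its log2FC was 0.93 and its adjusted p 0.0599, and it was lost in 9 of 11 fits that each left out 1 library, with adjusted p between 0.018 and 0.737 over those fits. By contrast, the rise within ByJcl passed in all 19 alternatives, at a log2FC between 1.19 and 1.51.

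Myh11, the motor itself and the most smooth muscle-restricted of the set, was at 107, 130 and 120 CPM in AJcl at baseline and at 126, 107 and 112 CPM in ByJcl. After ADR it was at 65.4, 119 and 115 CPM in AJcl and at 107, 141 and 117 CPM in ByJcl. AJcl Day 5 replicate 1 stood well below the other 11 libraries, ByJcl Day 5 replicate 2 was the highest, and the rest of the treated libraries overlapped with the untreated ones. The log2FC from baseline to Day 5 was 0.11 ± 0.12 in ByJcl (edgeR adjusted p = 0.635) and 0.00 ± 0.14 in AJcl (adjusted p = 0.994).

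Acta2, whose protein forms the filament that myosin pulls, was at 138, 120 and 116 CPM in AJcl and at 106, 95.1 and 114 CPM in ByJcl at baseline. At Day 5 the values were 131, 94.2 and 90.1 CPM in AJcl and 98.8, 130 and 105 CPM in ByJcl. Both AJcl Day 5 libraries of the fit lay below all 3 AJcl baseline libraries, and the one set aside lay among them. The log2FC in AJcl was -0.42 ± 0.14, with an unadjusted p of 0.0111 and an edgeR adjusted p of 0.304, and in ByJcl it was 0.11 ± 0.12 (adjusted p = 0.631). The interaction for Acta2 was 0.52 ± 0.18 with an unadjusted p of 0.0154 and an edgeR adjusted p of 0.62.

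Cnn1, which binds actin and restrains the myosin ATPase, was the least abundant member. It was at 1.17, 1.19 and 1.39 CPM in AJcl and at 0.766, 0.733 and 1.18 CPM in ByJcl at baseline. After ADR it was at 1.43, 1.39 and 1.11 CPM in AJcl and at 1.24, 2.49 and 1.34 CPM in ByJcl. Every ByJcl Day 5 library was above every ByJcl baseline library, the gap between the nearest 2 being small. The log2FC within ByJcl was 0.94 ± 0.34, with an unadjusted p of 0.0181 and an edgeR adjusted p of 0.102, so Cnn1 missed the threshold with the widest SE of the 6 in that comparison.

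Lmod1, the filament nucleator, ranged from 14.7 to 15.8 CPM in AJcl and from 12.6 to 14.9 CPM in ByJcl at baseline. At Day 5 it was at 13.0, 15.7 and 11.7 CPM in AJcl and at 10.6, 13.9 and 8.62 CPM in ByJcl. The lowest 2 libraries of the 12 were thus treated ByJcl libraries, and all 3 lay below untreated AJcl but overlapped with untreated ByJcl, where the log2FC of -0.28 ± 0.18 did not pass (edgeR adjusted p = 0.364). Its sign was opposite to that of Tagln there.

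Mustn1 was at 46.8, 39.8 and 36.4 CPM in AJcl and at 36.5, 40.3 and 28.0 CPM in ByJcl at baseline. Day 5 gave 40.7, 32.0 and 27.3 CPM in AJcl and 32.8, 34.4 and 35.5 CPM in ByJcl. The 3 treated ByJcl libraries fell inside the range of the untreated ones. In AJcl the log2FC was -0.45 ± 0.16, with an unadjusted p of 0.017 and an edgeR adjusted p of 0.345, and Mustn1 and Acta2 were the 2 members with an unadjusted p below 0.05 there.

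**Figure D2:**
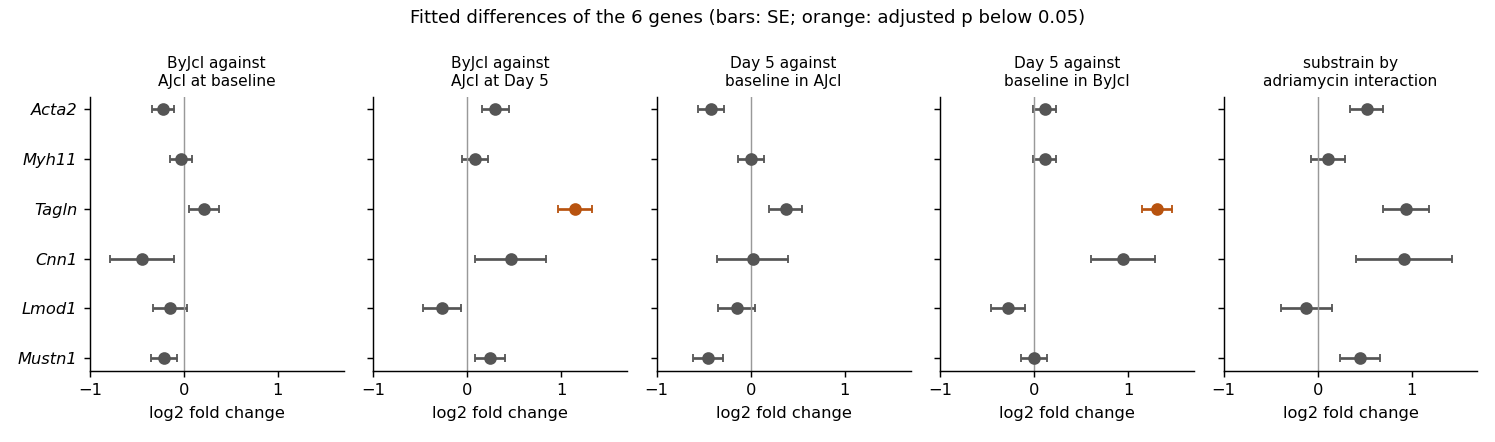
Fitted log2 fold change (horizontal axis) of each of the 6 genes in the 5 comparisons, with the SE as bars and orange marking an edgeR adjusted p below 0.05. Tagln is marked at Day 5 between substrains (1.15) and from baseline to Day 5 in ByJcl (1.31), and no other gene is marked.

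Counted over the 6 genes, ByJcl against AJcl at baseline gave 0 calls by edgeR against 0.159% of all tested genes, 0 with an unadjusted p below 0.05 against 8.34%, and 0 by DESeq2 against 0.594%. At Day 5 the same comparison gave 1 call, Tagln, against 0.165% of tested genes, 1 member against 14.0% at an unadjusted p below 0.05, and 1 by DESeq2 against 3.15%. The median log2FC of the 6 was -0.18 at baseline and 0.27 at Day 5, with medians of 0.01 and 0.00 over all tested genes.

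From baseline to Day 5, AJcl gave 0 calls of 6 by edgeR against 0.312% of tested genes, 2 with an unadjusted p below 0.05 against 9.80%, and 0 by DESeq2 against 1.77%. ByJcl gave 1 call against 10.6% of tested genes, 2 members (Tagln and Cnn1) against 26.8% at an unadjusted p below 0.05, and 1 by DESeq2 against 15.8%. In ByJcl 5.75% of tested genes were called higher, as Tagln was, and 4.83% lower. One call in 6 genes is near that background, so the members as a set did not stand out. The median log2FC of the members was 0.11 in ByJcl and -0.08 in AJcl, beside 0.01 and -0.01 over all tested genes.

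The interaction gave 0 calls of 6 by edgeR, as it did for 0% of tested genes, and 0 by DESeq2 against 0.129%. Tagln and Acta2 had an unadjusted p below 0.05 there, 2 of 6 against 8.02% of tested genes. The interaction was above 0 for 5 of the 6 members, Lmod1 at -0.12 ± 0.27 being the exception, with a median of 0.49 against 0.00 over all tested genes.

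Ratios between members within a library do not depend on its depth. Tagln over Acta2 was 0.886, 0.897 and 0.893 in the 3 AJcl baseline libraries and 1.07, 1.13 and 1.40 in ByJcl at baseline. Treated AJcl gave ratios of 1.61, 1.39 and 1.69, and treated ByJcl gave 2.89, 2.70 and 2.75. The treated ByJcl libraries were thus the highest, and in AJcl as well each Day 5 ratio, with or without the library set aside, exceeded each baseline ratio. These ratios are given as a description, with no test.

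Tagln made up between 26.1% and 28.4% of the summed CPM of the 6 genes in AJcl at baseline and 28.5%, 29.5% and 37.4% in ByJcl at baseline. At Day 5 it made up 45.6%, 33.3% and 38.3% in AJcl and between 52.0% and 53.3% in ByJcl. The other 5 genes summed to between 245 and 321 CPM over all 12 libraries, and the treated ByJcl libraries, at 250, 321 and 268 CPM, spanned most of that range. Acta2 over Myh11 was 0.926, 0.920 and 0.900 in treated ByJcl and 0.845, 0.886 and 1.02 in untreated ByJcl. In AJcl Day 5 replicate 1 it was 2.00, against 0.791 and 0.783 in the other Day 5 libraries of the group, and its Tagln over Myh11 of 3.22 was the highest of the 12. That library combined the lowest Myh11 with the highest Tagln of AJcl and the highest proximal tubule sum, and the part of its makeup in these ratios was not tested.

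**Figure D3:**
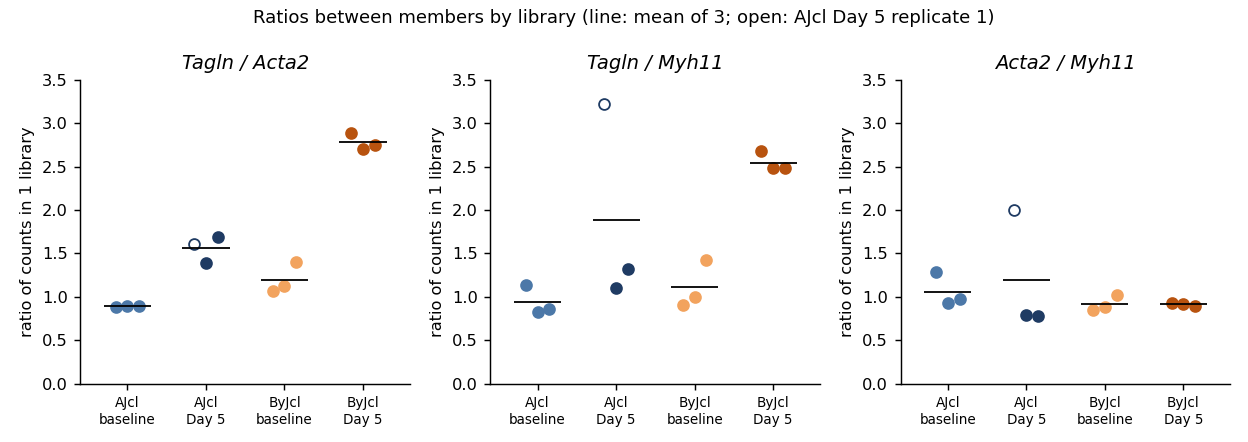
Ratios of Tagln to Acta2, Tagln to Myh11 and Acta2 to Myh11 (vertical axes, no unit) within each of the 12 libraries by group, with the mean of 3 as a line and AJcl Day 5 replicate 1 as an open circle. Tagln to Acta2 lies between 2.70 and 2.89 in treated ByJcl, and the open circle is highest in the ratios to Myh11.

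Beyond the 6, 23 other genes of contractile filaments, their anchors and cross-linkers were examined, 22 of them tested (Actg2 was not). From baseline to Day 5 in ByJcl 5 were called higher and 2 lower, against 5.75% and 4.83% of all tested genes, with a median log2FC of 0.25. With all 12 libraries 6 of the 22 were called. DESeq2 called 9 of the 22, against 15.8%, and 10 had an unadjusted p below 0.05, against 26.8%. The actin-filament stabilizer Tpm1 rose by 1.15 ± 0.17 on the log2 scale (edgeR adjusted p = 0.00306), the caldesmon gene Cald1 by 0.75 ± 0.11 (adjusted p = 0.00327), the adaptor Pdlim7 by 0.64 ± 0.13 (adjusted p = 0.0118) and the cross-linker Actn1 by 0.99 ± 0.20 (adjusted p = 0.013). Csrp1, which binds alpha-actinin, rose by 0.57 ± 0.12 as well. Synm, an intermediate filament gene, fell by 0.87 ± 0.19 on the log2 scale and Mylk, the kinase that switches on smooth muscle myosin, fell by 0.44 ± 0.12 (adjusted p = 0.0432). In mean level Tpm1 went from 310 to 678 CPM in ByJcl and Mylk from 1116 to 805 CPM. Many of these genes are expressed well beyond smooth muscle.

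In AJcl edgeR called 0 of these 22 from baseline to Day 5, against 0.312% of all tested genes. Of the 22, 3 had an unadjusted p below 0.05, against 9.80%, and DESeq2 called 1, against 1.77%. The largest values were -0.72 ± 0.13 for the tropomyosin Tpm2 (edgeR adjusted p = 0.0511) and 0.55 ± 0.24 for Synpo2. Between substrains at Day 5, Cald1 was higher in ByJcl by 0.79 ± 0.13 (adjusted p = 0.0474), the only call by edgeR of the 22, or 2 over all 12 libraries. Of the 22, 12 had an unadjusted p below 0.05 and DESeq2 called 8, beside 0.165% (edgeR), 14.0% (unadjusted) and 3.15% (DESeq2) of all tested genes. Their median log2FC at Day 5 was 0.43. At baseline 0 were called by edgeR, 0 had an unadjusted p below 0.05 and 0 were called by DESeq2, with Tns1 (0.36 ± 0.20) and Nexn (-0.34 ± 0.22) at the extremes. In the interaction edgeR called 0 of the 22, against 0% of all tested genes. At an unadjusted p below 0.05 there were 8, against 8.02%, and DESeq2 called 2, against 0.129%. The interaction was 0.85 ± 0.25 for Tpm1 and 0.79 ± 0.30 for Actn1.

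Of 21 genes that set the strength of contraction through calcium, myosin phosphatase, kinases and receptors, 2 were called in ByJcl between baseline and Day 5. Arhgef12, a guanine nucleotide exchange factor downstream of G proteins, fell by 1.04 ± 0.18 on the log2 scale (edgeR adjusted p = 0.00637), and Ppp1r14a, an inhibitor of myosin phosphatase, rose by 0.77 ± 0.18 (adjusted p = 0.024). With all 12 libraries 1 was called, DESeq2 called 6, and 9 of 21 had an unadjusted p below 0.05. Over all tested genes the shares were 10.6% (edgeR), 15.8% (DESeq2) and 26.8% (unadjusted), so the 2 calls by edgeR were near the background. No gene of this group was called by edgeR in the other comparisons, where between 1 and 4 had an unadjusted p below 0.05 and DESeq2 called at most 1. In AJcl the largest values were -0.76 ± 0.34 for Kcnmb1 and 0.67 ± 0.25 for Rgs2. At Day 5 between substrains they were 1.11 ± 0.21 for Ppp1r14a and -0.83 ± 0.73 for Adra1a, at baseline 1.05 ± 0.32 for Casq2 and -1.04 ± 0.67 for Adra1a, and in the interaction 0.80 ± 0.45 for Kcnmb1 and -0.66 ± 0.27 for Arhgef12.

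Among 11 transcription factors and cofactors of the smooth muscle programme, Klf4 was the only call. It encodes a factor that represses contractile genes in cultured smooth muscle and that podocytes and endothelium also express, and it rose in ByJcl by 0.69 ± 0.17 on the log2 scale (edgeR adjusted p = 0.0284), from 268 to 423 CPM in mean level. In ByJcl edgeR called 1 of the 11, against 10.6% of all tested genes, so that call was near the background. DESeq2 called 1, against 15.8%, and 3 had an unadjusted p below 0.05, against 26.8%. Srf was at 0.03 ± 0.12 in ByJcl and at -0.35 ± 0.14 in AJcl (edgeR adjusted p = 0.406), where Mrtfb was at 0.53 ± 0.15 (adjusted p = 0.233). Myocd, the smooth muscle-specific cofactor, had mean levels from 1.24 to 1.78 CPM and a log2FC of -0.15 ± 0.39 in ByJcl. The other comparisons gave 0 calls by edgeR and 0 by DESeq2. Up to 2 of the 11 had an unadjusted p below 0.05, beside 8.02% to 14.0% of all tested genes. The largest values of the list between substrains were 0.45 ± 0.13 for Notch3 and 0.33 ± 0.12 for Smad3 at baseline. At Day 5 they were 0.41 ± 0.19 for Klf4 and 0.36 ± 0.13 for Smad3. In the interaction they were 0.47 ± 0.26 for Klf4 and -0.40 ± 0.20 for Elk1.

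SRF also drives genes in cells that are not muscle, and 11 such targets were read off beside the members. In ByJcl 6 were called higher at Day 5 than at baseline and 0 lower, against 5.75% and 4.83% of all tested genes, with a median log2FC of 0.50. DESeq2 called 7 of the 11, against 15.8%. Ankrd1, a stretch-induced cofactor, rose by 1.98 ± 0.30 on the log2 scale (edgeR adjusted p = 0.00342), the tropomyosin Tpm4 by 0.64 ± 0.12 (adjusted p = 0.00807), the cytoplasmic actin Actg1 by 0.83 ± 0.16 (adjusted p = 0.00937) and the matricellular Ccn1 by 1.05 ± 0.23 (adjusted p = 0.0159). The remaining 2 were Ccn2 and the integrin Itga5, at 1.09 ± 0.24 and 0.46 ± 0.12. Between substrains at Day 5, Tpm4 was the only call by edgeR at 0.87 ± 0.14 (adjusted p = 0.0433), or 2 over all 12 libraries, with 8 of 11 at an unadjusted p below 0.05 against 14.0% of all tested genes and 7 calls by DESeq2 against 3.15%. In AJcl 0 were called by edgeR or DESeq2 and 0 had an unadjusted p below 0.05, Ankrd1 being at 0.64 ± 0.33 and Ccn2 at 0.52 ± 0.26. Baseline gave 0 by either tool and 1 at an unadjusted p below 0.05, against 8.34% of all tested genes. Itga5 was at 0.31 ± 0.12 there and Myh9 at 0.24 ± 0.16. For the interaction edgeR called 0, against 0% of all tested genes, and DESeq2 called 1, against 0.129%. Of the 11, 7 had an unadjusted p below 0.05, against 8.02%. Ankrd1 was at 1.35 ± 0.45 in the interaction and Actg1 at 0.91 ± 0.24.

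**Figure D4:**
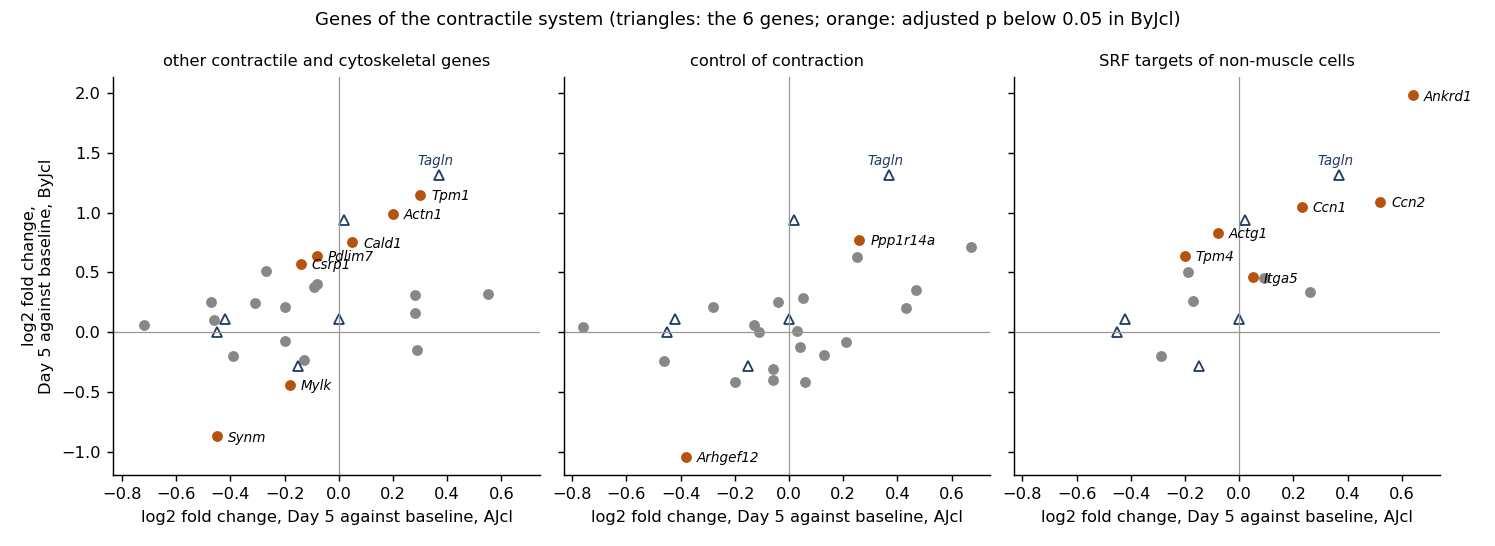
Log2 fold change from baseline to Day 5 in AJcl (horizontal axis) and in ByJcl (vertical axis) for the genes of 3 lists, with the 6 smooth muscle genes as triangles in each panel and orange marking an edgeR adjusted p below 0.05 in ByJcl. Tagln (0.37 and 1.31) sits near Tpm1 and Actn1 at the upper right, apart from 4 of the 5 other triangles, which lie at 0.11 or below in ByJcl.

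Markers of cell types that a glomerular preparation can hold were read beside Tagln. For 6 other genes of vascular smooth muscle, 0 were called by edgeR in any comparison, up to 3 had an unadjusted p below 0.05 and DESeq2 called 1, Nrip2, in ByJcl. Their summed level was between 68.0 and 81.7 CPM in untreated ByJcl and between 61.8 and 69.2 CPM in treated ByJcl, while Tagln rose. Kcnmb1 and Pln, a potassium channel subunit and a regulator of the calcium pump, were at 0.04 ± 0.30 and 0.21 ± 0.16 on the log2 scale in that comparison. Nrip2 was at -0.65 ± 0.20, with an unadjusted p of 0.007 and an edgeR adjusted p of 0.0586. The lower sum was carried by Nrip2, whose mean level went from 29.7 to 18.6 CPM. The 6 genes split into 3 above and 3 below 0, with a median of -0.02. Renin (Ren1), which marks juxtaglomerular cells, stayed at or below 0.112 CPM in every group mean and was not tested, and Akr1b7, listed with it, was at 1.14 ± 0.57 in ByJcl (edgeR adjusted p = 0.226). The defining genes of striated muscle were near 0, with 5 genes summing to between 0.711 and 2.33 CPM and mean levels of Acta1 and Actc1 of at most 0.256 and 0.453 CPM.

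Mesangial markers summed to between 1909 and 2340 CPM in untreated and between 2123 and 2769 CPM in treated ByJcl. Of these, 1 of 5, Serpine2, was called higher. Over all tested genes 5.75% were called higher and 4.83% lower in ByJcl, the share beside which the calls of each marker list stand. Pdgfrb and Itga8, the receptor and the integrin that define mesangial cells, were at -0.08 ± 0.17 and 0.10 ± 0.17 on the log2 scale. Fibroblast genes summed to between 587 and 659 CPM in untreated and 169 and 264 CPM in treated ByJcl. That drop was carried by Col1a2, which fell by 2.16 ± 0.24 on the log2 scale (edgeR adjusted p = 0.0012), while Col1a1 was at -0.17 ± 0.19, and 1 of 6 tested genes was called. All 8 podocyte genes fell in ByJcl, of which Nphs1 fell by 1.28 ± 0.24 on the log2 scale, and their sum went from between 18564 and 20645 CPM to between 7030 and 10299 CPM. Since CPM are shares of a library, the part of this loss in the level of Tagln was not tested.

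The genes listed for arterial endothelium summed to between 4125 and 5000 CPM in untreated ByJcl and to between 1060 and 1187 CPM in treated ByJcl. That difference was carried by Sema3g, a gene that podocytes express as well, with mean levels of 4017 and 645 CPM. Sema3g, which fell, and Fbln5, which rose, were the 2 calls of 5 tested genes, beside 10.6% of all tested genes called in ByJcl. Gja5 and Sox17, the listed arterial markers, were at 0.12 ± 0.14 and 0.02 ± 0.16. In glomerular endothelium 1 of 6 was called, Ehd3, which fell by 0.81 ± 0.20, with Kdr at -0.61 ± 0.20, and the sum went from between 6818 and 8195 CPM to between 4089 and 6066 CPM. The call of Ehd3 was lost with all 12 libraries, which gave 0 calls. Most of the difference of the sum lay in Ehd3 (mean levels of 2707 and 1510 CPM) and Kdr (1924 and 1234 CPM). Of the other 4 genes, Emcn and Tek were at -0.32 ± 0.18 and -0.19 ± 0.15, and Pecam1 and Cdh5 at 0.29 ± 0.13 and 0.13 ± 0.12. Proximal tubule (7 genes, Lrp2 at -0.63 ± 0.75 and Slc34a1 at -0.53 ± 0.64) and distal nephron (5 genes, Umod at -0.27 ± 0.61 and Slc12a1 at 0.43 ± 0.52) gave 0 calls in ByJcl by edgeR, 0 at an unadjusted p below 0.05 and 0 by DESeq2. Of 6 immune genes 1, Cd68, was called higher (1.17 ± 0.24), beside 5.75% of all tested genes, and Ptprc was at -0.39 ± 0.38. How far these other cell types entered the Tagln level was not tested.

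Beside the difference of Tagln between substrains at Day 5, no marker gene was called by edgeR between ByJcl and AJcl in the 11-library fit, but several lists leaned one way. All 8 podocyte genes had a log2FC below 0 (median -0.66, 5 with an unadjusted p below 0.05, 0 called by DESeq2), as had all 5 distal nephron genes (median -1.35, 2 unadjusted, 1 by DESeq2) and all 7 proximal tubule genes (median -0.90, 0 unadjusted, 0 by DESeq2). All 5 mesangial genes were above 0 (median 0.23, 1 unadjusted, 1 by DESeq2, and 1 called by edgeR over all 12 libraries), as were all 6 immune genes (median 1.13, 3 unadjusted, 1 by DESeq2). The 6 vascular smooth muscle genes split into 4 above and 2 below 0, with a median of 0.07 and 0 at an unadjusted p below 0.05 or called by DESeq2. Most of these lists leaned the same way at baseline, where Tagln was not called. All 7 proximal tubule (median -0.60) and all 5 distal nephron genes (median -1.34) were below 0 there. All 5 mesangial (median 0.26) and all 6 immune genes (median 0.92) were above 0 there. The 8 podocyte genes were all above 0 at baseline (median 0.22), opposite to Day 5. The part of these list differences in the Tagln difference at Day 5 was not tested.

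**Figure D5:**
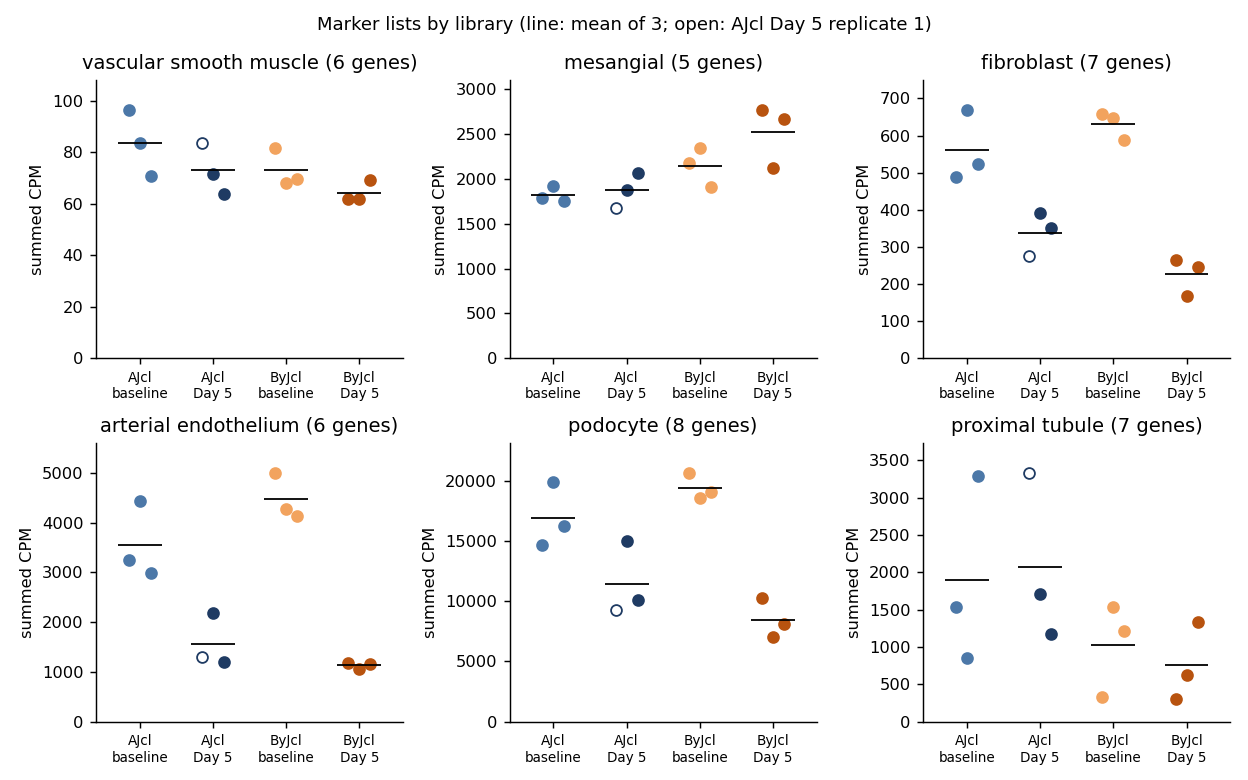
Summed TMM-normalized CPM (vertical axes from 0) of 6 marker lists in the 12 libraries by group, with the mean of 3 as a line and AJcl Day 5 replicate 1 as an open circle. The vascular smooth muscle sum of treated ByJcl lies between 61.8 and 69.2 CPM, low in the range of the 12 libraries, and the podocyte sum between 7030 and 10299 CPM, below both baseline groups.

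Genes whose pattern was most like the 6 were ranked by Pearson r between their log2 CPM and the mean centred log2 CPM of the members over 12 libraries. The members did not share one pattern: r between 2 members was above 0 in 8 of 15 pairs, with a median of 0.117 and a lowest value of -0.66 for Lmod1 with Tagln. With the group means removed, 10 of 15 pairs were above 0 with a median of 0.155, Lmod1 with Tagln was at -0.033, and Acta2 with Tagln went from 0.117 to 0.867. The genes most like their mean were Crem, a cAMP-responsive transcription factor (r = 0.957), Gnai3, an inhibitory G protein subunit (r = 0.944), and Tes, a focal adhesion protein (r = 0.94). A730049H05Rik, Plekha3, Gspt1, 5730403I07Rik, Etf1, Smarca5 and Mvb12a followed at r between 0.872 and 0.919. With the group means removed r was 0.952 for Crem, 0.933 for Gnai3 and 0.919 for Tes. The rest of the 10 then lay between 0.751 (Smarca5) and 0.918 (Etf1). By that r Smarca5 ranked 289th and Gspt1 178th, so the order was not stable. All libraries share the same preparation, and ByJcl Day 5 replicate 2 had the highest mean of the members at 0.413 on the log2 scale, the other 11 lying between -0.196 and 0.074. These values of r are a description, and how far they rest on ByJcl Day 5 replicate 2 was not tested.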

How the data were processed

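RNA of 12 glomerular preparations was sequenced, 3 per substrain and time, and grouped by the labels. According to the study's methods the authors used Trimmomatic for trimming, STAR for alignment to GRCm39 and featureCounts for counting, and the deposited values are whole-number counts per gene symbol, neither normalized nor pooled. Annotation and strand setting are not given in the sources used here. Between 77.08% and 82.85% of the counts from 1 to 49 in a library were even, so a count may not equal 1 sequenced fragment, and 3 or 60 counts may stand for fewer fragments. The floor of 3 counts covers counting error only, while the SE and SD also include differences between libraries.

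The 6 genes and all gene lists were chosen with earlier results of these data known, and p-values were adjusted over all tested genes.

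Counts were fitted in edgeR 4.0.16 (R 4.3.3) with filterByExpr, TMM scaling, 1 coefficient per group and the quasi-likelihood test over 17002 genes. The fit held 11 libraries, without AJcl Day 5 replicate 1, and had 7 residual degrees of freedom. The Benjamini-Hochberg adjustment was used with a threshold of 0.05. The SE is the log2 fold change divided by the root of F. CPM were scaled over all 12 libraries. DESeq2 1.42.0, RLE size factors, other filters, a replicate block, leaving out 1 library and the fit of only 2 groups were alternatives. Lengths, coordinates and overlaps came from GENCODE vM39 on GRCm39, and promoters from RefSeq on GRCm38.p6. The code was tested on simulated data. Figures used Python 3.11.15 and matplotlib 3.10.9.

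Named are the 6 genes, up to 4 called genes per pathway list and comparison by adjusted p or, with none called, 2 with the largest change, the first 2 genes of each marker list (1 of them is not reported here), and the 10 genes most like the 6. Srf and Myocd and further called genes of lists (Csrp1, Synm, Mylk, Ccn2, Itga5, Serpine2, Sema3g, Fbln5), Nrip2, Emcn, Tek, Pecam1 and Cdh5, the overlapping genes and, in observations, the genes most like Tagln were added after their values were seen.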

Additional observations from a re-analysis of the deposited data

How the results depend on the processing

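Of 564 values of log2FC of the 6 genes under alternatives, 551 stayed on their side of the threshold, 13 lost the call and no called value reversed. In 12 of the 551, uncalled values, the sign differed. All 13 lost calls were Tagln in ByJcl against AJcl at Day 5. The number of members called there, 1, became 0 with all 12 libraries (Tagln log2FC 0.93, adjusted p = 0.0599) and with only the 2 groups compared (1.15, adjusted p = 0.202). Leaving out 1 library gave 0 to 1 members. The call was kept only without AJcl Day 5 replicate 3 or without ByJcl baseline replicate 3, and without AJcl Day 5 replicate 2 the log2FC was 1.02 (adjusted p = 0.737). A fit without either of the AJcl Day 5 libraries leaves 1 in that group, whose spread is assumed to equal that of the others. DESeq2 kept the call (1.16, adjusted p = 1.43e-06), as did RLE size factors (adjusted p = 0.0423), no low-count filter (0.0159) and a filter of 1 CPM (0.0474). For the interaction of Tagln, adjusted p ranged from 0.0889 (DESeq2) to 0.987.

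Replicate numbers did not pair the libraries: same-numbered deviations correlated at 0.374, 0.024 and 0.164 between ByJcl baseline and Day 5 and at -0.173, -0.043 and -0.288 between AJcl and ByJcl at Day 5. With the replicate block the Day 5 substrain comparison had 0 members called (Tagln 1.17, adjusted p = 0.117), also 0 with the block over all 12 libraries, an alternative chosen after seeing the data (0.96, adjusted p = 0.0806). No other call of a member changed with the block.

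Counts over all genes moved more. At baseline 27 became 101 with DESeq2 and 15 with 2 groups, and 12 to 29 when leaving out 1 library. At Day 5 between substrains 28 became 72 with all 12 libraries, 535 with DESeq2, 56 with no filter, 6 with 2 groups and 58 with 12 libraries and the block, and 9 to 218 leaving out 1. In AJcl 53 became 301 with DESeq2, 99 with no filter, 33 with 2 groups and 26 with the block, on 11 or 12 libraries, and 11 to 180 leaving out 1. In ByJcl 1800 became 1197 with all 12 libraries, 1109 with the block on 12, and 680 to 2056 leaving out 1. The interaction went from 0 to 22 with DESeq2 and to 5 without AJcl Day 5 replicate 3. The cause was not tested. Groups held 2 or 3 libraries in the main fit and Cnn1 had a median count of 60, and their part in the precision was not tested.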

Other observations

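Over the 12 libraries, the tested genes whose log2 CPM followed Tagln most closely, ranked after its values were seen, were Acot9 (Pearson r = 0.973), Clic1 (r = 0.963), Phc2 (r = 0.962), Rtn4 (r = 0.961) and Jund (r = 0.961). With the group means removed r was 0.938 for Acot9, 0.803 for Clic1, 0.717 for Phc2, 0.787 for Rtn4 and 0.872 for Jund. None of these genes belongs to the 6 or to the contractile lists, and the groups themselves set part of r, so the values are a description.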
